A study of Saccharomyces cerevisiae with 4 samples.

Results

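Autophagy genes were defined as the rows of the deposited expression table whose gene name was ATG followed by a number, together with VPS15, VPS30, VPS34 and YPT7, which gave 38 of 5897 genes. The rule used names alone and no measured value, but the set was chosen with earlier results of these data known. Following their known roles, 20 were counted as core machinery of autophagosome formation, 8 as receptors and scaffold of selective autophagy (ATG11, ATG19, ATG32, ATG33, ATG34, ATG36, ATG39 and ATG40), and 10 as accessory and vacuolar genes. ATG33, described below only as taking part in mitophagy, was counted with the receptors. The libraries came from the industrial Saccharomyces cerevisiae strain CY, shaken for 10 h in rich medium (YPD). Growth was at 30 °C in 2% glucose for the 2 non-stress libraries and at 36 °C in 10% glucose for the 2 stress libraries. Temperature and sugar changed together, so their effects cannot be told apart, and nothing in the labels says that the replicates were separate cultures. The p-values therefore rest on the spread between the libraries alone, and that spread may be technical.

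In autophagy, cytoplasm is enclosed in a vesicle with a pair of membranes, the autophagosome, which fuses with the vacuole, where its contents are broken down and reused. In budding yeast the Atg1 kinase complex starts the process, a phosphatidylinositol 3-kinase marks the forming membrane, Atg9 vesicles and Atg2 supply lipid, and the ubiquitin-like protein Atg8 is attached to that membrane. Selective autophagy uses receptors that bind both a cargo and Atg8, and the scaffold Atg11 links them to the machinery. The cytoplasm-to-vacuole (Cvt) pathway is a constitutive form that delivers vacuolar hydrolases.

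Among the sequences upstream of these genes, matches to short motifs were looked up in the 300 bases before each start codon of the R64 genome, on both strands. The stress response element AGGGG, the motif bound by Msn2 and Msn4, was present before 11 of 38 autophagy genes (28.9%) and before 22.4% of all 5897 genes. It occurred before 4 of the 8 receptor and scaffold genes and before ATG8, where it occurred at 2 positions. The windows of ATG8 and of these 4 receptor genes are shown, a choice made with their values known. A rise does not set them apart, as ATG9, ATG20, ATG26, ATG29 and YPT7 also held the motif and rose. The matches before those genes and before ATG10, which did not pass the threshold given below, are not printed. The motif, or its reverse complement CCCCT, is in capitals, and the strand of the gene is read from 5′ to 3′:
ATG8, 91 bases before the start codon (chrII:80805-80834, minus strand): ggaaatacaaaaAGGGGaaccattaaaggt
ATG8, 68 bases before the start codon (chrII:80782-80811, minus strand): taaaggttgaggAGGGGattgataagagaa
ATG19, 170 bases before the start codon (chrXV:168545-168574, plus strand): atgacccggaaaAGGGGcgtgtgacattgc
ATG32, 264 bases before the start codon (chrIX:76020-76049, minus strand): ttgtttgacgcaCCCCTtttacaaaaaaaa
ATG34, 187 bases before the start codon (chrXV:165515-165544, plus strand): atggcacacgcaCCCCTaaagtaggtgggg
ATG39, 270 bases before the start codon (chrXII:759086-759115, minus strand): attttgcggtaaCCCCTttgcgcgacagct

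The motif GATAA, read by GATA factors such as Gln3 and Gat1, was found before 32 of 38 autophagy genes (84.2%) and before 61.5% of all genes. All 8 receptor and scaffold genes held it, as did 17 of 20 core genes and 7 of 10 accessory and vacuolar genes. Genes that rose were not the only ones to hold it. ATG1, ATG5 and ATG27, which fell, held it too, as did ATG10, ATG18 and VPS15, which did not pass the threshold given below. The autophagy genes without it were ATG13, ATG22, ATG23 and ATG41, which fell, and ATG12 and VPS30, which rose. For the pair with the largest rises, which lack AGGGG in this window, the GATAA matches nearest to the start codon are shown, with the motif or its reverse complement TTATC in capitals:
ATG33, 48 bases before the start codon (chrXII:840261-840290, plus strand): agccaaattcgcTTATCacttactacttca
ATG40, 91 bases before the start codon (chrXV:618362-618391, minus strand): tttcaaatcgagGATAAgatttttgtagtg
The letters TAGCCGCC, the core of the URS1 element read by Ume6, were before 0 of 38 autophagy genes and before 1.37% of all genes. The motifs do not overlap each other in letters, although a GATAA lies 60 bases before the ATG8 start codon, inside the window of the nearer AGGGG. A match is a description of the letters only.

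Most autophagy genes had higher FPKM (fragments per transcript length, scaled to the total mapped in a library) in the stress libraries, and of the 3 groups the receptors and scaffold of selective autophagy had the highest median change. Of 38 genes, all of which passed the filter on low values, 28 rose and 7 fell at a limma Benjamini-Hochberg adjusted p threshold of 0.05, adjusted over 5784 genes. ATG10, ATG18 and VPS15 did not pass. Over all genes tested 87.7% passed, with 39.8% higher and 47.9% lower, so a change as such is the rule in these libraries. Both stress values lay above both non-stress values for 28 of the 38 genes (42.5% of all genes tested) and below them for 9 (51.3%), and the groups overlapped for ATG10, where 93.8% of all genes had no overlap. A rise of at least 2-fold in mean FPKM was called for 17 of the 38 genes and for 19.7% of all genes, and a fall of that size for 2 of the 38 and for 27.8% of all genes. The median log2 fold change was 0.89 for the autophagy genes and -0.14 over all genes. In bulk RNA, a change in the makeup of the culture and a change of RNA per cell cannot be told apart.

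**Figure D1:**
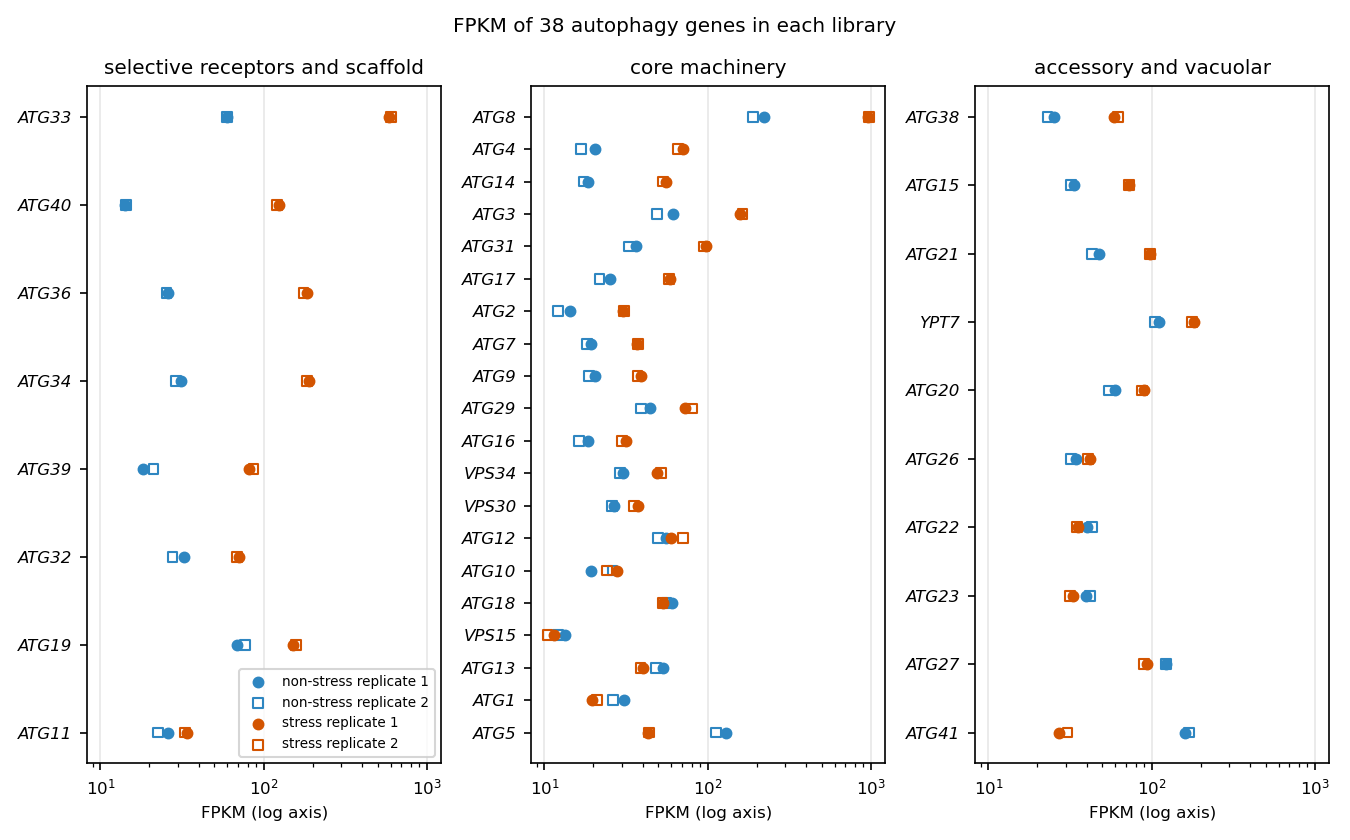
FPKM on a log axis for each of the 38 autophagy genes, with filled circles for replicate 1 and open squares for replicate 2 of the non-stress (blue) and stress (orange) libraries. All 8 receptor and scaffold genes have both stress values to the right of both non-stress values, as do 42.5% of all genes tested. ATG5 and ATG41 lie far to the left under stress.

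The summed FPKM of the 38 genes was 1874 and 1765 in the non-stress libraries and 4102 and 4136 in the stress libraries. This sum made up 0.190% and 0.175% of all FPKM in non-stress and 0.388% in both stress libraries. The receptor and scaffold genes contributed 276 and 277 FPKM in non-stress and 1421 and 1429 under stress, and the core genes 922 and 818 against 1949 and 1982. The accessory and vacuolar genes moved little as a sum, from 676 and 669 to 732 and 726 FPKM. FPKM is a share of a library, and cytosolic ribosomal protein genes went from 22.4% and 23.7% of the summed FPKM to 1.54% and 1.57%, which raises the share of all other genes. When the libraries were scaled to equal FPKM sums without these 137 genes, a scaling chosen after the data were seen, 24 autophagy genes rose and 9 fell, against 27.8% of all genes higher and 61.8% lower and a median of -0.57 over all genes.

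All 8 receptor and scaffold genes rose, by 0.45 to 3.29 on the log2 scale with a median of 2.32, against 39.8% of all genes called higher. ATG33, an outer mitochondrial membrane protein that takes part in mitophagy, is a single-exon gene on chromosome XII (840321 to 840914, plus strand, build R64). Its FPKM was 59.4 and 59.8 in the non-stress libraries and 586 and 601 in the stress libraries. The groups lay far apart, with a 9.95-fold difference in means (59.6 ± 0.276 against 593 ± 11.2, SD, n = 2) or 3.29 ± 0.049 on the log2 scale (SE; limma adjusted p = 2.01e-11). ATG33 was seventh of the 38 genes by level in non-stress and came right after ATG8 under stress. By log2 fold change it ranked 180 among the 5784 genes tested.

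ATG40, the receptor for autophagy of cortical endoplasmic reticulum (chromosome XV, 617518 to 618288, minus strand), was at 14.2 and 14.4 FPKM in non-stress and at 124 and 121 under stress. It was among the least abundant autophagy genes in non-stress and rose 8.56-fold (log2 difference 3.01 ± 0.063, SE; limma adjusted p = 1.40e-10). ATG36, the receptor for peroxisomes (chromosome X, 82095 to 82976, minus strand), had 25.9 and 25.4 FPKM in non-stress and 183 and 176 under stress. It rose 7.0-fold, or by 2.76 ± 0.058 on the log2 scale (SE; limma adjusted p = 1.46e-10). ATG39, the receptor at the nuclear envelope and perinuclear endoplasmic reticulum (chromosome XII, 757637 to 758833, minus strand), went from 18.2 and 21.1 to 81.7 and 86.7 FPKM, a log2 fold change of 2.05.

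The neighbouring genes ATG34 and ATG19 on chromosome XV encode related receptors. Atg19 carries the aminopeptidase Ape1 and the mannosidase Ams1 in the Cvt pathway, and Atg34 carries Ams1 during starvation. ATG34 (165714 to 166952, plus strand) was at 31.3 and 29.1 FPKM in non-stress and at 190 and 184 under stress, while ATG19 (168727 to 169974, plus strand) was at 68.8 and 77.0 and at 151 and 158. Both rose, by log2 fold changes of 2.59 and 1.08. Their order reversed: within a library, ATG34 was 0.455 and 0.378 times ATG19 in non-stress and 1.26 and 1.16 times under stress. No 50-base window of either coding sequence occurs in another coding sequence, so exact reads of 50 bases or more can be told apart between them.

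The scaffold gene ATG11 had the lowest rise of this group, below those of ATG19 and ATG32. ATG32, the outer membrane receptor that marks mitochondria (chromosome IX, 74184 to 75773, minus strand), had 32.5 and 27.7 FPKM in non-stress and 71.2 and 68.9 under stress, a rise of 1.195 ± 0.082 on the log2 scale (SE; limma adjusted p = 6.31e-07). ATG11 (chromosome XVI, 661137 to 664673, minus strand) had 26.0 and 22.6 FPKM in non-stress and 33.9 and 33.1 under stress. Its groups do not overlap and its log2 fold change was 0.45 ± 0.085 (SE; limma adjusted p = 0.000763). With sums equalized without ribosomal protein genes it was 0.025 and did not pass (adjusted p = 0.793).

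Receptors and core genes had close median levels in non-stress and lay apart under stress. The median of log2(FPKM + 1) over the 8 receptor and scaffold genes minus that over the 20 core genes was -0.00040 and 0.016 in the non-stress libraries and 1.55 and 1.52 in the stress libraries. The change in this difference was 1.53, far above the SD between replicates (0.011 and 0.026). An exact two-sided permutation test over the 4 libraries gave p = 0.33, the smallest value that 2 against 2 allow. With quantile normalization the change was 1.42, and with equal FPKM sums (all genes, or without ribosomal protein genes), median centring, a pseudocount of 0.1 and without any 1 library it stayed within the spread between replicates of 1.53.

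**Figure D2:**
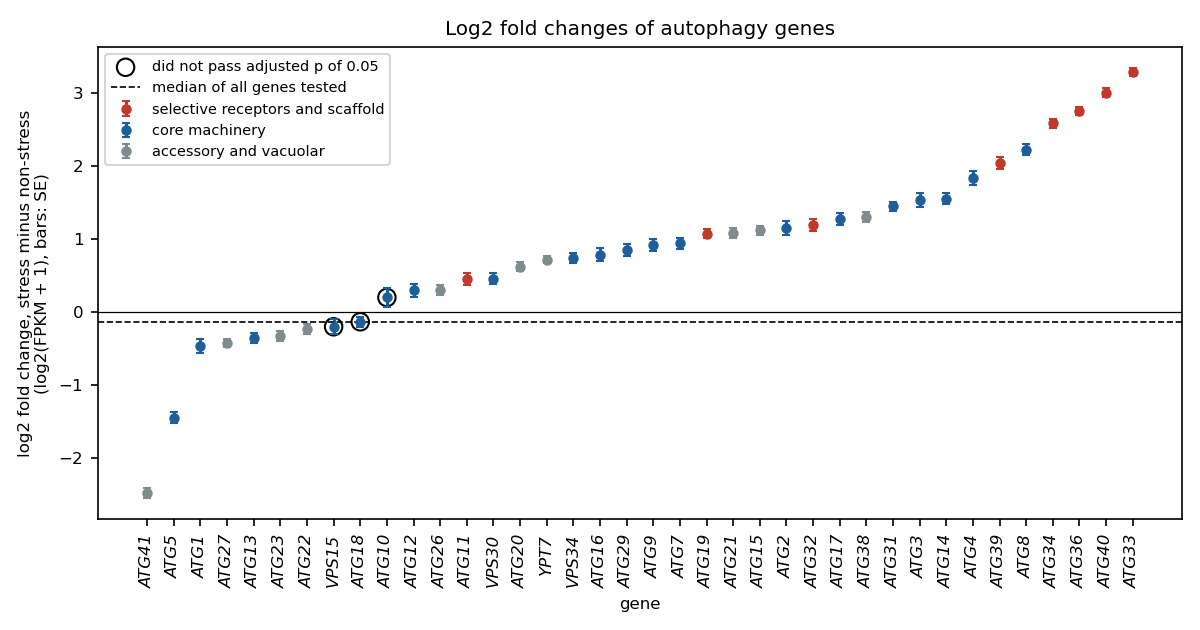
Log2 fold change of each autophagy gene (stress minus non-stress, on the log2(FPKM + 1) scale) with its SE, ordered by size and coloured by group, with the median of all genes tested (-0.14) as a dashed line. Of the 6 largest rises, 5 are from the receptor and scaffold group and the other is ATG8, and ATG41 has the largest fall.

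The core machinery moved less evenly: 14 of 20 genes rose, 3 fell (ATG1, ATG5 and ATG13) and 3 did not pass. The median of their log2 fold changes was 0.82. Over all genes tested, 39.8% were higher and 47.9% lower. ATG8, the ubiquitin-like protein that coats the autophagosome (chromosome II, 80378 to 80731, minus strand), was the most abundant autophagy gene in every library. Its FPKM was 223 and 189 in non-stress and 956 and 980 under stress, a rise of 4.69-fold (206 ± 24.0 against 968 ± 16.6, SD, n = 2; log2 fold change 2.23 ± 0.075, SE; limma adjusted p = 3.20e-09). ATG8 alone held 11.9% and 10.7% of the summed FPKM of the autophagy genes in non-stress and 23.3% and 23.7% under stress. It was 8.33 and 7.23 times the median of the other core genes in non-stress and 22.1 and 22.3 times under stress.

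All 4 genes of the Atg8 conjugation system rose, where 39.8% of all genes tested were called higher. ATG4, the protease that trims Atg8 and later releases it from lipid (chromosome XIV, 227370 to 228854), went from 20.4 and 16.7 to 70.6 and 66.2 FPKM, a log2 fold change of 1.83. ATG3, the conjugating enzyme (chromosome XIV, 639182 to 640114), went from 61.3 and 48.9 to 159 and 164 FPKM, and ATG7, the activating enzyme shared with Atg12 (chromosome VIII, 445713 to 447605), from 19.3 and 18.3 to 36.9 and 37.3. Their log2 fold changes were 1.54 and 0.94. Because ATG8 rose more than its enzymes, the ratio of ATG8 to ATG3 within a library went from 3.64 and 3.87 to 6.03 and 5.98, and that of ATG8 to ATG4 from 10.95 and 11.3 to 13.5 and 14.8.

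The Atg12 system, which joins Atg12 to Atg5 and acts as the ligase for Atg8, went several ways. ATG5 (chromosome XVI, 271310 to 272194, plus strand) had 129 and 113 FPKM in non-stress and 43.3 and 43.9 under stress. It was the fourth most abundant autophagy gene in non-stress and fell to 0.360 of that level (log2 fold change -1.45 ± 0.073, SE; limma adjusted p = 6.18e-08). Its partner ATG16 (chromosome XIII, 574476 to 574928), which dimerizes the conjugate, rose from 18.4 and 16.4 to 31.5 and 30.0 FPKM (log2 fold change 0.79). The ratio of ATG5 to ATG16 within a library, chosen after its values were seen, was 7.01 and 6.90 in non-stress and 1.38 and 1.46 under stress.

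ATG12 itself was at 55.3 and 49.8 FPKM in non-stress and at 59.3 and 70.7 under stress, a log2 fold change of 0.30 (limma adjusted p = 0.0127). This call was lost without non-stress replicate 2 (adjusted p = 0.129) and without stress replicate 2 (0.153), and without the filter on low values (0.0584), and with sums equalized without ribosomal protein genes the log2 fold change was -0.14. ATG10, the conjugating enzyme for Atg12, had overlapping groups, with 19.3 and 26.2 FPKM in non-stress and 28.0 and 24.1 under stress. It did not pass (log2 fold change 0.20, limma adjusted p = 0.189), but it did with quantile normalization (0.57, adjusted p = 0.0231), with median centring (0.39, adjusted p = 0.0389) and without non-stress replicate 2 (0.41, adjusted p = 0.0191), and it was -0.010 without non-stress replicate 1.

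In the Atg1 kinase complex, the kinase and its regulatory partner fell and the scaffold subunits rose. ATG1, the kinase that starts autophagosome formation (chromosome VII, 160065 to 162758, plus strand), was at 30.8 and 26.3 FPKM in non-stress and at 19.7 and 20.9 under stress. The groups do not overlap and the log2 fold change was -0.47 ± 0.094 (SE; limma adjusted p = 0.00113), but with quantile normalization it was -0.10 and did not pass (adjusted p = 0.213). ATG13, the partner that links the kinase to nutrient signalling (chromosome XVI, 907218 to 909434), fell from 53.3 and 48.4 to 40.0 and 38.9 FPKM, a log2 fold change of -0.36.

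The scaffold proteins Atg17, Atg29 and Atg31 form a complex used in starvation-induced autophagy. ATG31 (chromosome IV, 488072 to 488662) rose from 36.3 and 33.1 to 98.0 and 94.8 FPKM, and ATG17 (chromosome XII, 971917 to 973170) from 25.2 and 21.8 to 58.7 and 58.2. ATG29 (chromosome XVI, 237338 to 237979) rose from 44.7 and 39.0 to 72.3 and 80.6 FPKM, and 24 of its bases overlap SET6 on the other strand. The log2 fold changes were 1.45, 1.28 and 0.86. Within a library, ATG17 was 0.818 and 0.829 times ATG1 in non-stress and 2.99 and 2.78 times under stress. Multiplying a whole library by a single factor leaves this ratio unchanged, but quantile normalization can change it. The ratio of ATG13 to ATG1 was 1.73 and 1.84 and then 2.03 and 1.86.

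**Figure D3:**
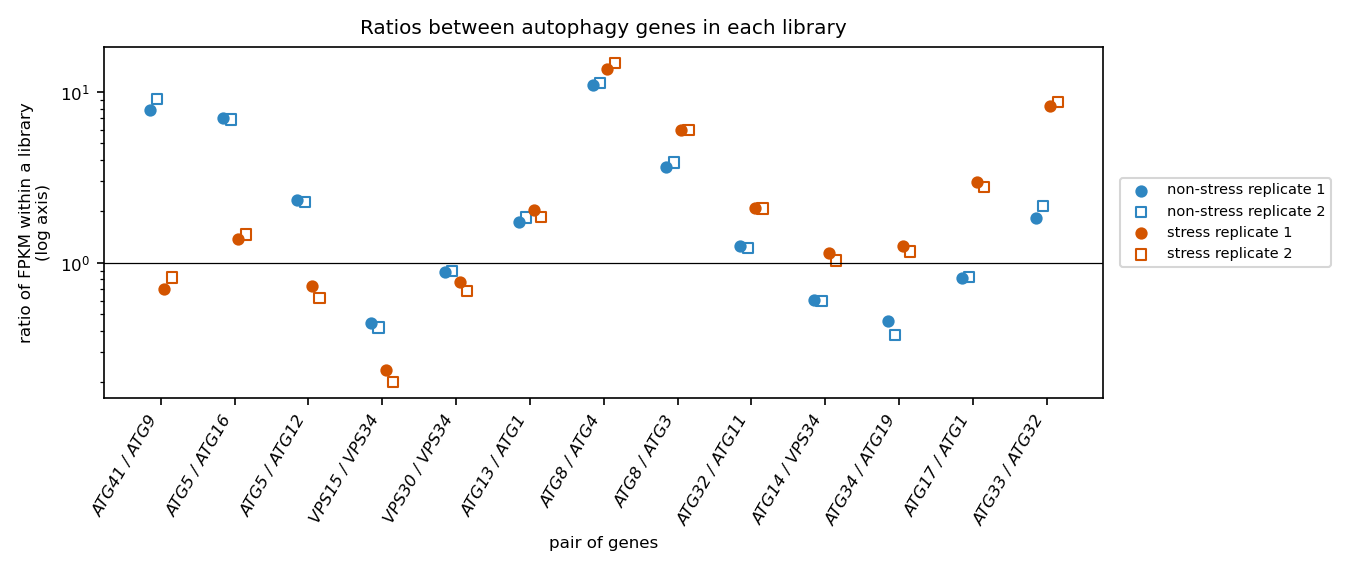
Ratio of the FPKM of paired autophagy genes within each library, on a log axis, for non-stress (blue) and stress (orange) libraries, with the line at a ratio of 1. ATG5 to ATG12, ATG41 to ATG9, ATG34 to ATG19, ATG17 to ATG1 and ATG14 to VPS34 cross that line between the conditions, while ATG13 to ATG1 stays between 1.73 and 2.03. The pairs were chosen after their values were seen.

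In the phosphatidylinositol 3-kinase complex the subunit specific to autophagy rose most. ATG14, which directs the kinase to the forming autophagosome (chromosome II, 493081 to 494115), went from 18.5 and 17.4 to 55.8 and 53.6 FPKM, a log2 fold change of 1.56. VPS34, the kinase itself (chromosome XII, 617533 to 620160), rose from 30.4 and 28.9 to 48.9 and 52.0 FPKM, and VPS30, the yeast Beclin (chromosome XVI, 322071 to 323744), from 26.8 and 26.0 to 37.7 and 35.5. Their log2 fold changes were 0.75 and 0.46, and that of VPS30 was 0.028 (adjusted p = 0.727) with sums equalized without ribosomal protein genes. Both of these proteins also serve in vacuolar sorting.

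VPS15, the regulatory kinase of the same complex, was the least abundant autophagy gene under both conditions, with 13.5 and 12.1 FPKM in non-stress and 11.5 and 10.4 under stress. It did not pass (log2 fold change -0.20, limma adjusted p = 0.1003). With equal FPKM sums the fall passed (-0.28, adjusted p = 0.0376), and with quantile normalization the sign turned and passed (0.34, adjusted p = 0.0101). Against VPS34 in the same library, ATG14 was 0.609 and 0.600 in non-stress and 1.14 and 1.03 under stress, and VPS15 was 0.442 and 0.418 and then 0.235 and 0.201. The accessory subunit gene ATG38, whose product holds this complex together and which is the only autophagy gene here with an intron (59 bases), rose from 25.1 and 23.0 to 59.1 and 62.6 FPKM.

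Among the genes for membrane supply, ATG9, a lipid scramblase carried in vesicles (chromosome IV, 184925 to 187918, plus strand), was at 20.6 and 18.7 FPKM in non-stress and at 38.9 and 37.2 under stress. It rose 1.94-fold (log2 fold change 0.92 ± 0.079, SE; limma adjusted p = 3.12e-06). ATG2, the lipid transfer protein (chromosome XIV, 191324 to 196102), rose from 14.4 and 12.2 to 30.2 and 30.9 FPKM. ATG18, the phosphoinositide-binding partner of Atg2, did not pass, at 60.9 and 56.1 against 53.4 and 52.9 FPKM (log2 fold change -0.13, limma adjusted p = 0.0794), and its sign turned with quantile normalization (0.035) and median centring (0.056). ATG18 passed as lower with equal FPKM sums (-0.22, limma adjusted p = 0.0139). It also did with sums equalized without ribosomal protein genes (-0.569, limma adjusted p = 1.77e-05), where the median over all genes was -0.57. Without non-stress replicate 2 its log2 fold change was -0.19.

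Of the 10 accessory and vacuolar genes 6 rose and 4 fell, where 39.8% of all genes were higher and 47.9% lower. The median of these 10 genes was 0.47 on the log2 scale. ATG41, whose product interacts with Atg9 (chromosome XVI, 74309 to 74719, minus strand), had 161 and 170 FPKM in non-stress and 27.2 and 30.6 under stress. It was next to ATG8 in abundance in non-stress and ranked 35 of 38 under stress, a log2 difference of -2.48 ± 0.071 (SE; limma adjusted p = 1.11e-09). Within a library, ATG41 was 7.81 and 9.13 times ATG9 in non-stress and 0.700 and 0.821 times under stress. ATG27 and ATG23, whose products act in the transport of Atg9, fell: ATG27 went from 123 and 123 to 93.2 and 89.8 FPKM and ATG23 from 39.9 and 42.1 to 33.1 and 31.6, with log2 fold changes of -0.42 and -0.33. The ATG23 call was lost with quantile normalization (-0.08, adjusted p = 0.317) and median centring (-0.14, adjusted p = 0.08).

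ATG21, a phosphoinositide-binding protein that helps place the Atg8 machinery, rose from 47.9 and 43.4 to 98.2 and 97.8 FPKM. ATG20, a sorting nexin of the Cvt pathway, rose from 59.8 and 54.5 to 89.4 and 87.5 FPKM. ATG26, a sterol glucosyltransferase known for its part in pexophagy in Komagataella (Pichia), had 34.5 and 32.3 FPKM in non-stress and 42.1 and 41.0 under stress (log2 fold change 0.31, limma adjusted p = 0.00236). With sums equalized without ribosomal protein genes its log2 fold change was -0.12.

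At the vacuole, YPT7, the Rab GTPase for fusion (chromosome XIII, 267174 to 267800, plus strand), was at 111 and 106 FPKM in non-stress and at 182 and 177 under stress. It rose 1.65-fold (log2 fold change 0.72 ± 0.054, SE; limma adjusted p = 1.14e-06). ATG15, the lipase that opens autophagic bodies, rose from 33.5 and 32.2 to 72.7 and 72.9 FPKM. ATG22, an exporter of amino acids from the vacuole, went from 40.0 and 43.4 to 35.3 and 35.1 FPKM, a log2 fold change of -0.24 (limma adjusted p = 0.0103). Its call was lost without either stress library (adjusted p = 0.0717 and 0.0788), and with median centring (-0.048, adjusted p = 0.545), and its sign turned with quantile normalization (0.017).

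**Figure D4:**
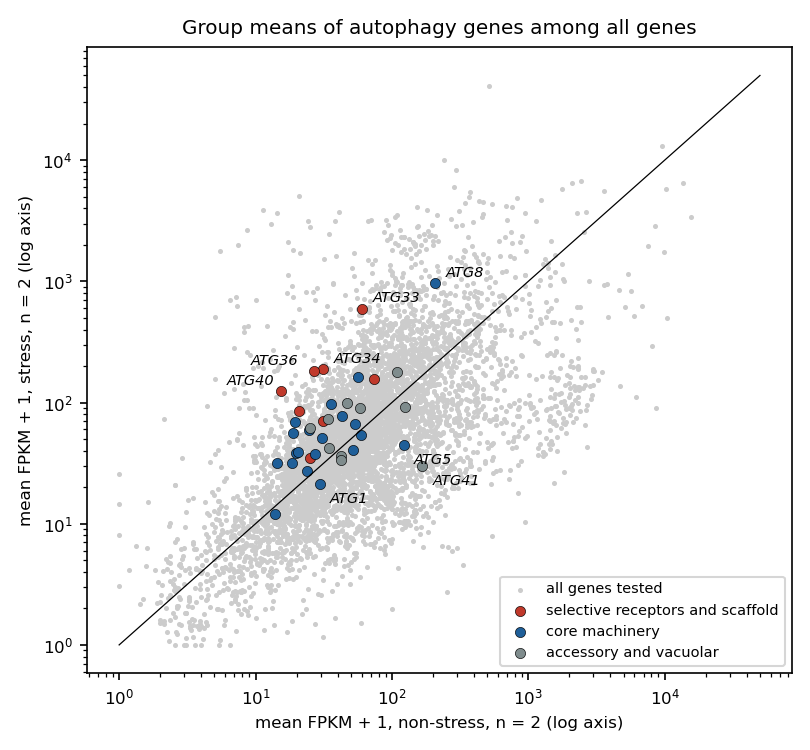
Mean FPKM + 1 of the stress libraries against that of the non-stress libraries (n = 2 each, log axes) for all genes tested (grey) and for the autophagy genes by group, with the line of equal values. ATG8, ATG33, ATG34, ATG36 and ATG40 lie well above the line and ATG5 and ATG41 below it.

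RefSeq gives a number of the ATG series to 4 further genes, which the table lists under other names and which are not counted above. YBR139W (ATG42), a vacuolar carboxypeptidase, rose from 65.0 and 59.4 to 318 and 316 FPKM, a log2 fold change of 2.33. YIL156W-B (ATG44), a mitochondrial fission protein needed for mitophagy, rose from 74.5 and 70.3 to 211 and 199 FPKM, and YIL024C (ATG45) from 29.1 and 29.01 to 61.1 and 64.8. SNX4 (ATG24), the sorting nexin partner of Atg20, did not pass, at 94.8 and 86.6 against 102 and 98.4 FPKM (limma adjusted p = 0.0577).

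Genes on either side of the machinery were described by lists. All 6 vacuolar peptidase genes rose, and their median was 1.33 on the log2 scale, where 39.8% of all genes were higher. PRC1, carboxypeptidase Y, rose from 449 and 474 to 1728 and 1613 FPKM, and APE3, an aminopeptidase, from 752 and 749 to 2574 and 2502. All 4 cargoes of the Cvt pathway rose, and 3 did with sums equalized without ribosomal protein genes, where 27.8% of all genes were higher. The mannosidase gene AMS1 went from 89.97 and 79.1 to 244 and 234 FPKM and the aspartyl aminopeptidase gene APE4 from 104 and 105 to 232 and 229. The aminopeptidase gene APE1 and the cysteine peptidase gene LAP3 had log2 fold changes of 0.38 and 0.65.

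Among 15 genes for fusion with the vacuole 8 rose and 5 fell (median 0.30 on the log2 scale), where 39.8% of all genes were higher and 47.9% lower. The SNARE gene NYV1 (1.03) and VPS33 of the HOPS tether (0.73) rose most, and PEP5, also of HOPS (-1.16), and CCZ1, of the exchange factor for Ypt7 (-0.78), fell most. With quantile normalization 2 fell, against 41.2% of all genes lower and 46.5% higher. With sums equalized without ribosomal protein genes 4 rose, against 27.8% of all genes. Of 19 partners of selective autophagy 11 rose and 6 fell (median 0.30), and 6 rose under the same scaling. FIS1, which anchors the fission dynamin to mitochondria, rose from 51.7 and 56.8 to 741 and 727 FPKM, and the dynamin gene DNM1 from 26.7 and 24.4 to 223 and 222. The kinase gene SLT2 (-1.16), needed for mitophagy and pexophagy, and BRE5 (-1.05), of the ubiquitin protease used in ribophagy, fell.

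Of 15 transcription regulators of autophagy genes 8 rose and 5 fell (median 0.20 on the log2 scale). Over all genes 39.8% were higher and 47.9% lower. With sums equalized without ribosomal protein genes 2 regulators rose and 8 fell, where 27.8% of all genes were higher and 61.8% lower. UME6, a repressor of ATG8, went from 44.5 and 36.7 to 14.2 and 15.6 FPKM (log2 fold change -1.38), and the GATA factor gene GAT1 fell from 89.3 and 100 to 48.5 and 50.4. PHO23, a repressor of ATG9, rose from 58.0 and 70.1 to 147 and 149 FPKM. FYV5 was 0.89 higher on the log2 scale, but 71.5% of its 50-base windows occur in another coding sequence, that of the overlapping ADF1, so its value is uncertain.

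Of 21 genes for TORC1, protein kinase A and other upstream kinases and their regulators, 9 rose and 8 fell (median 0.11 on the log2 scale). Over all genes 39.8% were higher and 47.9% lower. The counts for the 21 genes depend on the scaling, with 5 lower after quantile normalization (41.2% of all genes). With sums equalized without ribosomal protein genes 4 were higher and 13 lower (27.8% and 61.8% of all genes). The 13 of 21 genes are close to the share of all genes lower under that scaling. BCY1, the inhibitory subunit of protein kinase A, rose from 229 and 231 to 801 and 797 FPKM, and the catalytic subunit gene TPK2 from 100.7 and 95.9 to 320 and 301. TPK3, another catalytic subunit gene, fell from 44.9 in both libraries to 13.5 and 13.8 FPKM, and TAP42, a phosphatase regulator downstream of TORC1, from 73.8 and 73.4 to 40.3 and 39.7.

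**Figure D5:**
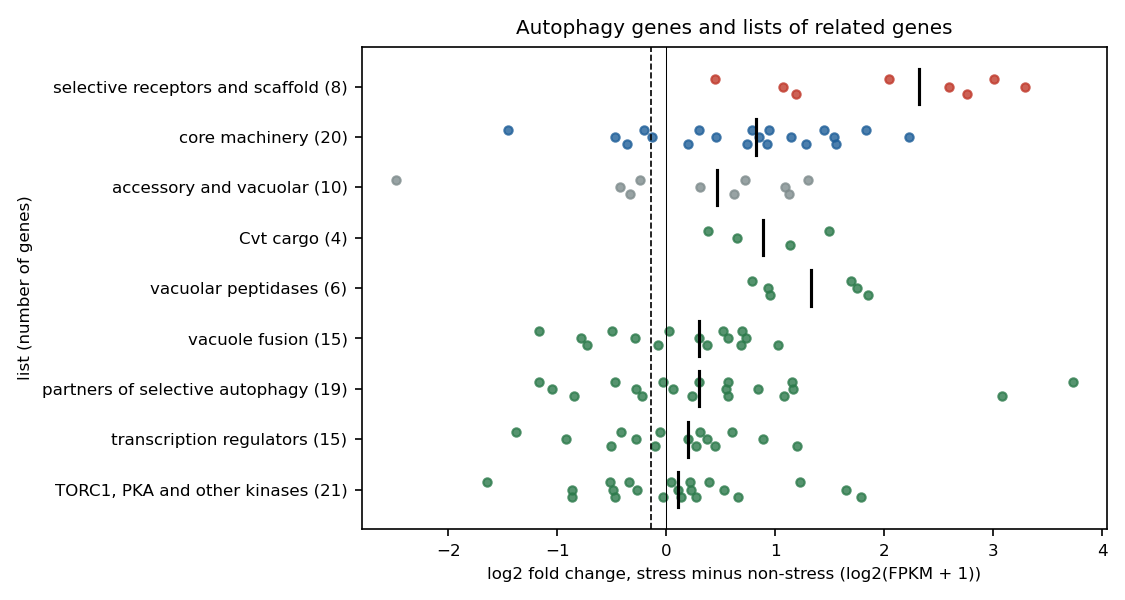
Log2 fold change (stress minus non-stress, log2(FPKM + 1) scale) of every gene in the groups of autophagy genes and in the 6 lists of related genes, with a black bar at each median and the median of all genes tested as a dashed line. The median is 2.32 for receptors and scaffold, 1.33 for vacuolar peptidases and between 0.11 and 0.89 for the other groups and lists.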

How the data were processed

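Per the file headers, the table the authors deposited holds FPKM for each gene in each library, with 2 decimals. The submitters' processing notes name RSEM 1.2.8, HISAT2 2.1.0, Bowtie2 2.2.5 and build R64, with no role or order. Read filters and strand handling are not given in the sources used here. All 38 genes had the same coordinates in the R64 reference, and none shared a 50-base window with another coding sequence. Low FPKM values fall on steps of whole reads (96.1% to 100% within 0.1), which put the depth at 18000000 to 18700000 fragments per library. The least covered value of an autophagy gene was worth 127 reads. On estimated reads, replicates differed by more than sampling (median chi-square per gene 2.22 in non-stress and 0.81 in stress, 0.45 by sampling alone).

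The filter asked for FPKM 1 or more in 2 or more libraries and kept 5784 of 5897 genes. Stress was compared with non-stress by limma 3.58.1 in R 4.3.3 (lmFit, eBayes with trend) on log2(FPKM + 1), two-sided, with p-values adjusted by Benjamini-Hochberg over these genes and called at 0.05. There were 2 residual and 6.51 prior degrees of freedom. Fold changes on this scale understate changes of low genes, and folds given without log2 are mean FPKM under stress over mean FPKM in non-stress. The fit was tested on simulated data. All autophagy genes are named. Lists of up to 4 genes are named in full, and from the others up to 2 genes in each direction with the largest called change, no overlap between groups and a mean FPKM of 10 or more. The members and lists were chosen with earlier results of these data known. Alternatives were 3 scalings, 2 filters, a smaller pseudocount (0.1), a replicate block, each library left out and a stricter threshold (0.01). Scaling without ribosomal protein genes was added after the data were seen. Tables and figures were made in Python 3.11.15 (pandas 2.3.3, matplotlib 3.10.9).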

Additional observations from a re-analysis of the deposited data

How the results depend on the processing

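The counts of autophagy genes called higher (28) stayed within 1.5 times under every alternative run. The count called lower (7) was 4 with quantile normalization. For core genes the lower count (3) was 5 with equal FPKM sums, with or without ribosomal protein genes, and for accessory and vacuolar genes (4) it was 2 with quantile normalization and with median centring. The change in receptor minus core was 1.42 with quantile normalization. With quantile normalization, 5 upstream kinase genes and 2 fusion genes were lower, against 41.2% of all genes. With sums equalized without ribosomal protein genes, 4 upstream kinase genes were higher and 13 lower, and 2 transcription regulators higher and 8 lower. Under the same scaling 4 fusion genes and 6 partner genes were higher, against 27.8% of all genes higher and 61.8% lower. Signs turned for ATG10 (-0.22), ATG12 (-0.14) and ATG26 (-0.12) with that scaling, for ATG18 (0.035), ATG22 (0.017) and VPS15 (0.34) with quantile normalization, for ATG18 (0.056) with median centring, and for ATG10 among the libraries left out in turn (-0.010 to 0.41). The median over all genes moved with the scaling, from -0.14 to 0.09 (quantile), 0.05 (median centring), -0.22 (equal sums) and -0.57 (without ribosomal protein genes), and the cause of each lost call was not tested.

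Same-numbered libraries did not deviate together (r = -0.01 across 5784 genes, which are not independent). Each group gives only a single difference between its 2 libraries, so this value cannot tell whether the numbers pair the samples. With the replicate block 28 autophagy genes were higher and 7 lower, and no autophagy gene changed its call. The block leaves fewer residual degrees of freedom than the main fit, so its spread leans more on that shared over all genes. The unchanged calls therefore say little about pairing. With 2 libraries a group, no exact test over samples can go below 0.33.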
